A study of Mus musculus with 13 samples.

Results

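Ribosome biogenesis and RNA polymerase I were described through 38 genes, selected by symbol from the raw RNA-seq count table, which lists 24079 genes. All 38 were present and passed the filter on low counts, as did 13972 genes in all. The RNA came from CGR8 cells, a mouse embryonic stem (ES) cell line grown without feeder cells on gelatin with LIF and serum. Control cells received 0.5% DMSO and treated cells received 10 μM PhenDC3, a ligand that stabilizes G-quadruplexes (G4), dissolved in the same amount of DMSO. Both treatments lasted 48 h, with 3 RNA libraries per condition. Because all libraries derive from this single line and no label says whether replicates were separate cultures, the p-values measure the spread between these libraries. The same treatments were also mapped for replication origins by sequencing short nascent strands (SNS-seq), with 3 control and 2 PhenDC3 peak lists, which were used here at the start sites of these genes.

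RNA polymerase I transcribes the ribosomal DNA repeats in the nucleolus into a long precursor RNA. Small nucleolar ribonucleoproteins (snoRNPs) modify and fold this precursor, the small subunit processome cuts it and builds the 40S subunit, and a separate set of assembly factors builds the 60S subunit. Growing cells express these factors at high levels, Myc is a known activator of many of them, and ES cells have large, active nucleoli.

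Total counts ranged from 22232014 to 29486502 per library. Values are given as normalized CPM, read counts set to a common library size after scaling each library by relative log expression, and genes were called at an adjusted p of at most 0.05 in edgeR's quasi-likelihood test over all 13972 genes. The median log2 fold change of all genes was 0.01. The ES cell markers Pou5f1, Nanog, Sox2, Zfp42, Esrrb, Klf4, Dppa5a, Tdgf1, Utf1 and Fgf4 together made up 7623 to 8496 CPM in the controls and 8621 to 10042 CPM with PhenDC3. Fibroblast markers summed to 12.6 to 21.97 CPM in the controls and 23.0 to 25.6 with PhenDC3, and Dcn and Lum were at 0 in all 6 libraries.

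PhenDC3-treated cells had lower RNA levels of many of the 38 genes, and none of them was called higher. Of the 38 genes, 19 were called lower, or 50%, against a background of 18.7% of all genes tested that were called lower and 18.0% that were called higher. The median log2 fold change of the group was −0.40. The called genes fell to between 56.3% and 80.9% of the control level. The 60S assembly factors held 7 of the 19 calls among their 8 members, and the falls were largest for Bop1, Ebna1bp2, Npm3, Nhp2 and Nolc1. In 23 of the 38 genes all 3 PhenDC3 values lay below all 3 control values, which was the case for 25.6% of all genes tested. All 19 called genes were among these 23. The log2 fold change was negative in 34 of the 38 genes, and the 4 positive values (Polr1c, Ubtf, Taf1d and Utp20) did not pass the test.

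The number of calls depended on the treated libraries and on the scaling. Without PhenDC3 replicate 1 there were 11 genes called lower, beside 11.4% of all genes tested. Without PhenDC3 replicate 2 there were also 11, beside 14.4%. Ncl, Polr1d, Wdr43, Nop14, Bysl, Pes1 and Nop16 were lost in both cases, along with Wdr12 in the first and Rrp12 in the second. With libraries scaled by total counts alone, 12 genes were called lower and Polr1c was called higher. Under that scaling the median of all genes moved to 0.16 and the median of the group to −0.25, a distance of −0.41 from all genes, and the calls over all genes were split into 3583 higher and 1688 lower rather than 2518 and 2617. With the replicate number as a block in the fit, 30 genes were called lower, beside 26.4% of all genes tested. Rrn3, Npm3, Nolc1, Nhp2, Rrp9, Nob1, Bop1, Gnl3, Ebna1bp2 and Rrs1 were called lower in every one of the 14 alternative fits. With single libraries left out, 11.4% to 19.1% of all genes tested were called lower. Counts given below for fits without a library stand beside these shares.

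**Figure D1:**
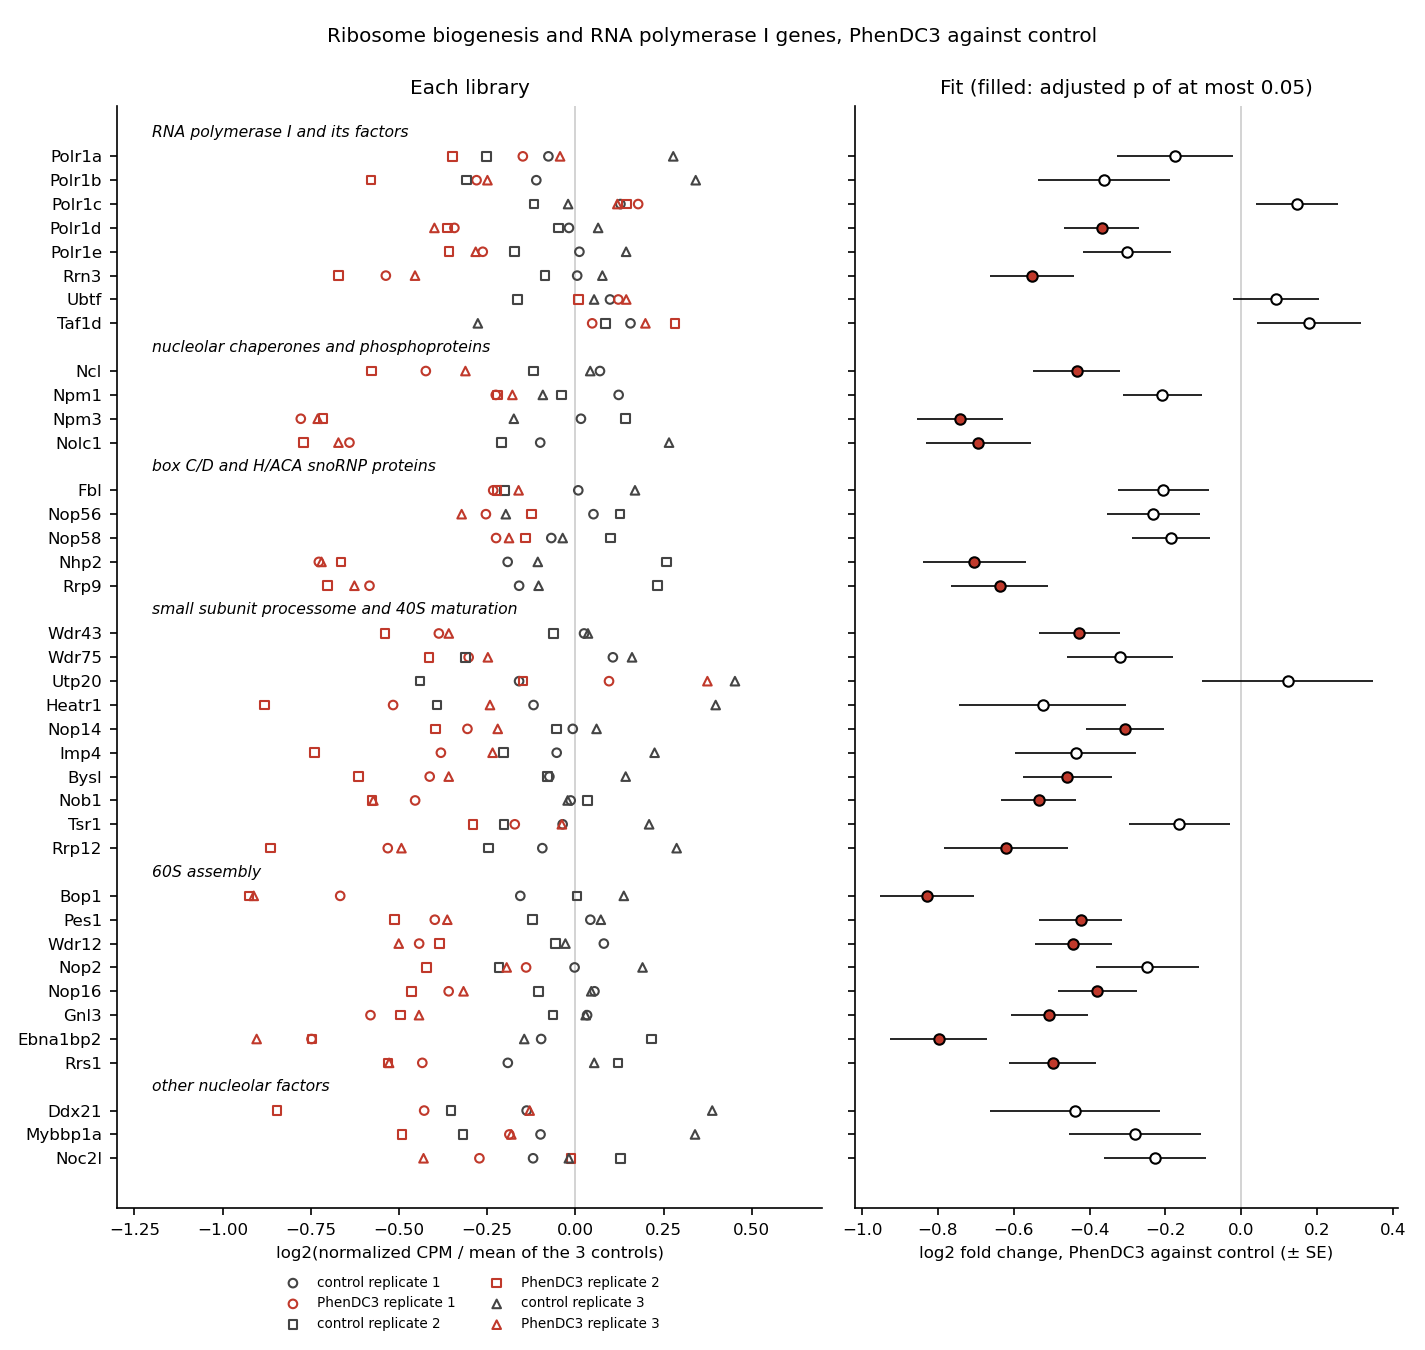
The 38 genes grouped by role, with one row per gene. The left panel shows each library as log2 of normalized CPM over the mean of the 3 controls (gray, controls; red, PhenDC3; circle, square and triangle, replicates 1, 2 and 3), and the right panel shows the fitted log2 fold change with its SE (filled, adjusted p of at most 0.05). The red symbols lie left of all gray symbols in 23 genes, and 19 points are filled, all left of 0.

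The promoter windows of 6 called genes are printed because these genes had the largest falls among those with a RefSeq promoter window and an SNS-seq peak or a predicted G4 near the start site. Each window runs from 250 bases before the start site to 50 bases after it on GRCm38.p6, on the gene's own strand: Ebna1bp2 at chr4:118620549-118620848 (plus), Npm3 at chr19:45749516-45749815 (minus), Nhp2 at chr11:51619523-51619822 (plus), Nolc1 at chr19:46075597-46075896 (plus), Rrp9 at chr9:106477059-106477358 (plus) and Rrn3 at chr16:13780449-13780748 (plus). Capitals mark the E-box CACGTG, the core motif bound by Myc and Max, and CCGGAA or its reverse complement TTCCGG, the core motif of ETS factors.
Ebna1bp2: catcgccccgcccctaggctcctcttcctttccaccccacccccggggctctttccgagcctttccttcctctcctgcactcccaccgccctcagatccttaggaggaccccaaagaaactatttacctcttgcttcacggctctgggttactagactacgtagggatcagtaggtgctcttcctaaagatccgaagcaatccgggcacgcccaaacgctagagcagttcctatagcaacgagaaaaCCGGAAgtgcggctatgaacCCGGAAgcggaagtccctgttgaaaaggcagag
Npm3: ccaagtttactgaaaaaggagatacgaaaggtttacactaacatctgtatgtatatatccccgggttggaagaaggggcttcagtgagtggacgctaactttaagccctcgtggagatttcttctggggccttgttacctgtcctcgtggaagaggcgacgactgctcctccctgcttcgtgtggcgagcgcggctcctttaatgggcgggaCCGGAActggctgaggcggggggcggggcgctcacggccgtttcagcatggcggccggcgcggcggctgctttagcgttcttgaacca
Nhp2: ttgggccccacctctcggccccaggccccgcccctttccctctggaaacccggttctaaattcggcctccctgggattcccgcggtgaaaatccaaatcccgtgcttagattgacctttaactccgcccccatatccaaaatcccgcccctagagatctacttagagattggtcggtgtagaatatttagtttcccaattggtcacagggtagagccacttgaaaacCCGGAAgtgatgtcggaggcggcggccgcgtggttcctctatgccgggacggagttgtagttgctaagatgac
Nolc1: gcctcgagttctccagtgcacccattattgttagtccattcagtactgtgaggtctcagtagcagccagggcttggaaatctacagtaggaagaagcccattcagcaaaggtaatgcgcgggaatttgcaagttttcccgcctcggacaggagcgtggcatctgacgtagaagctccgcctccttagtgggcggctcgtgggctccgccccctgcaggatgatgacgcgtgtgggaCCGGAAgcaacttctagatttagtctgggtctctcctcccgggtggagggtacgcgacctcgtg
Rrp9: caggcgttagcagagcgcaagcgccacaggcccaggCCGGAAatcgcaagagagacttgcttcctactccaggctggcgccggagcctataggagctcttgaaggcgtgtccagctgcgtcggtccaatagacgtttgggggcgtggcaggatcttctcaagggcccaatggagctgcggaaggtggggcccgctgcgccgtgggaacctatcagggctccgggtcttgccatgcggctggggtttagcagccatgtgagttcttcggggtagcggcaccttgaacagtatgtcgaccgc
Rrn3: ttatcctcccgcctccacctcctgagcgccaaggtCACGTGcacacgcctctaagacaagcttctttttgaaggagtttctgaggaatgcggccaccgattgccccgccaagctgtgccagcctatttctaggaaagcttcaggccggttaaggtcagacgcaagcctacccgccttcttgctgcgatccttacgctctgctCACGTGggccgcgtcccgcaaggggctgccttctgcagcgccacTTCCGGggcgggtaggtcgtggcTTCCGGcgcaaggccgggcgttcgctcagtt

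CCGGAA was present in all 6 printed windows, and CACGTG in that of Rrn3 alone, with first bases 215 and 48 bases before the start site. RefSeq windows were found for 33 of the 38 genes, the exceptions being Npm1, Fbl, Rrp12, Bop1 and Rrs1. Some genes, such as Ubtf, had several windows, and a gene was counted when any of its windows held the motif. On either strand, CACGTG was found for 8 of the 33 genes (24.2%), against 11.7% of the genes tested that had a window. Counted per window instead of per gene, it was found in 7.15% of all 32851 windows. The 8 genes were Imp4, Mybbp1a, Nop2, Pes1, Rrn3, Tsr1, Utp20 and Wdr43, of which Pes1, Rrn3 and Wdr43 were called lower. CCGGAA was found for 14 of the 33 genes (42.4%), against 29.9% of genes tested and, per window, 14.9% of all windows. The GC box GGGCGG was found for 27 genes (81.8%), against 68.5% of genes tested and, per window, 35.7% of all windows. CAAGATGGC, a YY1 motif, was found for none of the 33 genes and for 2.51% of genes tested. These shares describe letters in a fixed window and were not tested.

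Among the 8 genes of RNA polymerase I and its factors, 2 were called lower (25%, near the background of 18.7%) and the median log2 fold change was −0.24. The count was 1 without any single PhenDC3 library and 4 without control replicate 2. Rrn3 (chr16:13780699-13814841), the initiation factor that joins the polymerase to the promoter, was measured at 322, 302 and 338 CPM in control replicates 1, 2 and 3, and at 221, 201 and 234 CPM with PhenDC3. Each treated library lay below the lowest control, and the log2 fold change was −0.55 ± 0.11 (SE, 3 against 3 libraries, edgeR adjusted p = 0.0050). Polr1d, a subunit shared with RNA polymerase III, had 185 ± 7.56 CPM in the controls and 144 ± 2.87 with PhenDC3 (SD, n = 3 each), a log2 change of −0.37 ± 0.10 (edgeR adjusted p = 0.018). Its groups did not overlap. The call was lost when any of the 3 PhenDC3 libraries was left out, while the log2 fold change stayed between −0.38 and −0.35.

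The catalytic core of the polymerase gave no call in the main fit. Polr1a, the largest subunit, was at 204, 180 and 260 CPM in the controls and at 194, 169 and 208 CPM with PhenDC3. The groups overlapped, and the log2 fold change was −0.17 ± 0.15 (edgeR adjusted p = 0.40). Polr1b, the other large subunit, was at 154, 134 and 210 CPM in the controls and at 137, 111 and 139 CPM with PhenDC3, with a log2 fold change of −0.36 ± 0.17 (edgeR adjusted p = 0.13). In both genes control replicate 3 was the highest of the 6 libraries. Polr1b was called lower with the replicate number as a block (edgeR adjusted p = 0.0075). Without control replicate 2, Polr1b was also called lower (edgeR adjusted p = 0.047), while Polr1a was called in no alternative fit. Polr1e, a subunit involved in initiation, did not overlap between groups, with 40.3 to 50.1 CPM in the controls and 35.4 to 37.8 CPM with PhenDC3, yet it missed the threshold (log2 fold change −0.30, edgeR adjusted p = 0.072). Ubtf, the factor that binds along the active ribosomal DNA repeats, was at 427, 356 and 414 CPM in the controls and at 434, 402 and 441 CPM with PhenDC3. Its log2 fold change was 0.09 ± 0.11 (edgeR adjusted p = 0.55), and of the treated libraries 2 lay above all controls and the other within their range. Polr1c, the partner of Polr1d that is also shared with RNA polymerase III, had a log2 fold change of 0.15, and Taf1d, a subunit of the promoter selectivity factor, of 0.18, neither past the threshold.

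Nucleolar chaperones and phosphoproteins were called lower in 3 of 4 cases, with a median of −0.56. Npm3 (chr19:45747734-45749565), a nucleoplasmin family protein that binds Npm1, was at 157, 172 and 138 CPM in the controls and at 90.6, 94.7 and 93.7 CPM with PhenDC3. The 3 treated values lay close together and far below the lowest control, and the log2 fold change was −0.74 ± 0.11 (edgeR adjusted p = 0.0014). Nolc1 (chr19:46075847-46085543), a phosphoprotein that associates with snoRNPs, was at 404, 375 and 520 CPM in the controls and at 278, 254 and 272 CPM with PhenDC3. The controls were the more scattered group, without overlap with the treated libraries, and the log2 fold change was −0.69 ± 0.14 (edgeR adjusted p = 0.0052). Ncl, nucleolin, which binds nascent pre-rRNA, was at 3566, 3131 and 3499 CPM in the controls and at 2533, 2278 and 2738 CPM with PhenDC3. Its log2 fold change was −0.43 ± 0.11 (edgeR adjusted p = 0.017), and no treated library reached a control. Npm1, nucleophosmin, was at 5126, 4584 and 4417 CPM in the controls and at 4027, 4043 and 4161 CPM with PhenDC3. These groups did not overlap either, but the log2 fold change of −0.21 ± 0.10 was not called (edgeR adjusted p = 0.15).

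Of the 5 snoRNP proteins, 2 were called lower, and these were the H/ACA protein Nhp2 and the U3-specific protein Rrp9. Nhp2 (chr11:51619773-51623718), a core protein of the snoRNPs that guide pseudouridylation, was at 246, 336 and 261 CPM in the controls and at 170, 177 and 171 CPM with PhenDC3, where 169.8 was the lowest value. All treated libraries lay below the controls, and the log2 fold change was −0.70 ± 0.14 (edgeR adjusted p = 0.0041). Rrp9 (chr9:106477309-106485415), which binds the U3 snoRNA needed for cleavage of the precursor, was at 130.4, 171 and 136 CPM in the controls and at 97.2, 89.5 and 94.4 CPM with PhenDC3. Control replicate 2 was the highest library for both genes, and the log2 fold change of Rrp9 was −0.64 ± 0.13 (edgeR adjusted p = 0.0051). The core box C/D proteins changed less. Fbl, fibrillarin, the methyltransferase of these particles, was at 786, 680 and 878 CPM in the controls and at 665, 669 and 699 CPM with PhenDC3, with overlapping groups and a log2 fold change of −0.21 ± 0.12 (edgeR adjusted p = 0.21). Its partners Nop56 and Nop58 had log2 fold changes of −0.23 and −0.18, neither called.

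Small subunit processome and 40S maturation factors were called lower in 5 of 10 cases, with a median of −0.43. The count was 2 without PhenDC3 replicate 1 and 1 without PhenDC3 replicate 2. Rrp12 (chr19:41859483-41896153), which acts in 40S maturation and export, was at 144, 130 and 188 CPM in the controls, where 129.9 was the lowest value, and at 107, 84.7 and 110 CPM with PhenDC3, where 109.5 was the highest. The groups did not overlap, and the log2 fold change was −0.62 ± 0.16 (edgeR adjusted p = 0.016; 0.054 without PhenDC3 replicate 2). Nob1, the endonuclease that makes the 3′ end of 18S rRNA, was the tightest of the group, with 117 ± 2.51 CPM in the controls and 81.1 ± 3.97 with PhenDC3 (SD, n = 3 each), and its log2 fold change was −0.53 (edgeR adjusted p = 0.0035). Bysl, a 40S assembly factor, had a log2 fold change of −0.46, Wdr43, a component that joins the processome early, of −0.43, and Nop14, a processome protein, of −0.31. The adjusted p of Nop14 was 0.045 in edgeR's test, and its call was lost without any single library of the 6.

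The other 5 members of this group did not pass the test. Imp4, a U3-associated protein, had a log2 fold change of −0.44 (edgeR adjusted p = 0.059), and its groups did not overlap. Heatr1, a very large processome protein, had one of −0.52 with an SE of 0.22 (edgeR adjusted p = 0.092). Wdr75, a partner of Wdr43, was at −0.32, and Tsr1, a GTPase-like 40S factor, at −0.16. Utp20, another very large processome protein, had a log2 fold change of 0.12 ± 0.23, which turned negative without control replicate 2 (−0.061) or without PhenDC3 replicate 3 (−0.022).

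Of the 8 factors of 60S assembly, 7 were called lower, with a median of −0.47, and 4 were called lower without PhenDC3 replicate 1. Bop1 (chr15:76452988-76477249), which forms the PeBoW complex with Pes1 and Wdr12 and is needed for 28S and 5.8S rRNA maturation, was at 147, 164 and 180 CPM in the controls, where 179.6 was the highest value, and at 103, 86.0 and 86.8 CPM with PhenDC3. Every treated library was well below every control, and the log2 fold change of −0.83 ± 0.12 was the largest fall of the 38 genes (edgeR adjusted p = 0.0013). The partners of Bop1 fell less, with log2 fold changes of −0.42 ± 0.11 for Pes1 and −0.44 ± 0.10 for Wdr12. Ebna1bp2 (chr4:118620799-118627776), a nucleolar assembly factor of the large subunit, was at 215, 267 and 208 CPM in the controls and at 137, 137 and 123 CPM with PhenDC3. The treated values again lay below all controls, and the log2 fold change was −0.80 ± 0.13 (edgeR adjusted p = 0.0018). Gnl3, nucleostemin, a nucleolar GTPase abundant in stem cells, had 345 ± 13.0 CPM in the controls and 243 ± 11.6 with PhenDC3 (SD, n = 3 each), a log2 change of −0.51 (edgeR adjusted p = 0.0054). Rrs1, which helps to bring the 5S particle into the large subunit, was at −0.50 on the log2 scale, and Nop16, a late nucleolar factor, at −0.38, both called. Nop2, an rRNA methyltransferase, was the exception at −0.25 ± 0.14 (edgeR adjusted p = 0.18).

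None of the 3 other nucleolar factors was called in the main fit. With the replicate number as a block, all 3 were called lower, beside 26.4% of all genes tested. The RNA helicase Ddx21 was at 462, 399 and 666 CPM in the controls and at 378, 283 and 465 CPM with PhenDC3, so its groups overlapped in spite of a log2 fold change of −0.44 ± 0.22 (edgeR adjusted p = 0.15). Mybbp1a, a nucleolar protein that also represses transcription, was at −0.28, and Noc2l, a nucleolar factor that also inhibits histone acetylation, at −0.23.

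The genes differed in how the replicates scattered, and this followed merged exon length. That length joins the exons of all curated RefSeq transcripts of a gene, so it can exceed the length of any single transcript. Control replicate 3 was the highest control for 21 of the 38 genes, and PhenDC3 replicate 2 the lowest treated library for 25. Across the 38 genes, the deviation of control replicate 3 from the other controls rose with merged exon length (Spearman's rho = 0.66), while that of control replicate 2 fell (rho = −0.67). The treated libraries gave 0.62 for PhenDC3 replicate 3 and −0.66 for PhenDC3 replicate 2. Over 13949 genes tested the same values were 0.38 and −0.40 for the controls and 0.38 and −0.39 for PhenDC3. These are descriptions across genes of shared libraries. Merged exon lengths ran from 862 bases in Npm3 to 8831 in Utp20. The long genes Utp20, Heatr1, Polr1a and Ddx21 had control replicate 3 as their highest control. Ncl (8257 bases) and Ubtf (6131 bases), which are also long by this measure, had control replicate 1. The part of this pattern in the calls was not tested.

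Steady levels covered a wide range. Per kilobase of merged exon, the control mean ran from 12.3 CPM for Polr1e to 2741 for Npm1, with a median of 76.2. Where merged exons are longer than the expressed transcript, such a value is too low, so the order depends on the annotation. After Npm1, the highest levels per kilobase were those of Fbl with 674 and Ncl with 412, followed by Nop56 with 269.7 and Nhp2 with 253. Of these 5 highly expressed genes, Ncl and Nhp2 were called lower.

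Some loci overlap annotated neighbors. Ebna1bp2 shares 1373 bp of its span with D4Ertd617e on the same strand, Bop1 shares 2058 bp with Scx on the opposite strand, and Tsr1 shares 5314 bp with Srr on the opposite strand. The strand setting of the counting step is not given in the sources used here, so reads in such overlaps may have been assigned to either gene or dropped.

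Rn45s, the gene entry of the 45S ribosomal RNA precursor that RNA polymerase I makes, is not among the 38 genes and was examined after its values were seen. It was at 60806, 25880 and 52756 CPM in the controls and at 3294, 1602 and 13766 CPM with PhenDC3. All treated libraries lay below all controls, with a wide spread in each group, and the log2 fold change was −2.90 ± 0.74 (edgeR adjusted p = 0.016). The call was lost without PhenDC3 replicate 1 (edgeR adjusted p = 0.067), and in 2 further of 13 alternative fits, up to an edgeR adjusted p of 0.11 with every gene of at least 1 count in the fit. The libraries were made with a kit that selects polyadenylated RNA, and RNA polymerase I transcripts largely lack a poly(A) tail, so these reads are what passed the selection. Whether the amount that passed differed between libraries was not tested. The counts do not tell the precursor from the mature rRNA cut out of it, so they do not measure polymerase I output. Rn45s took 2.55% to 5.70% of all counts in the controls and 0.172% to 1.43% with PhenDC3, and without this row the same 19 genes were called lower.

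**Figure D2:**
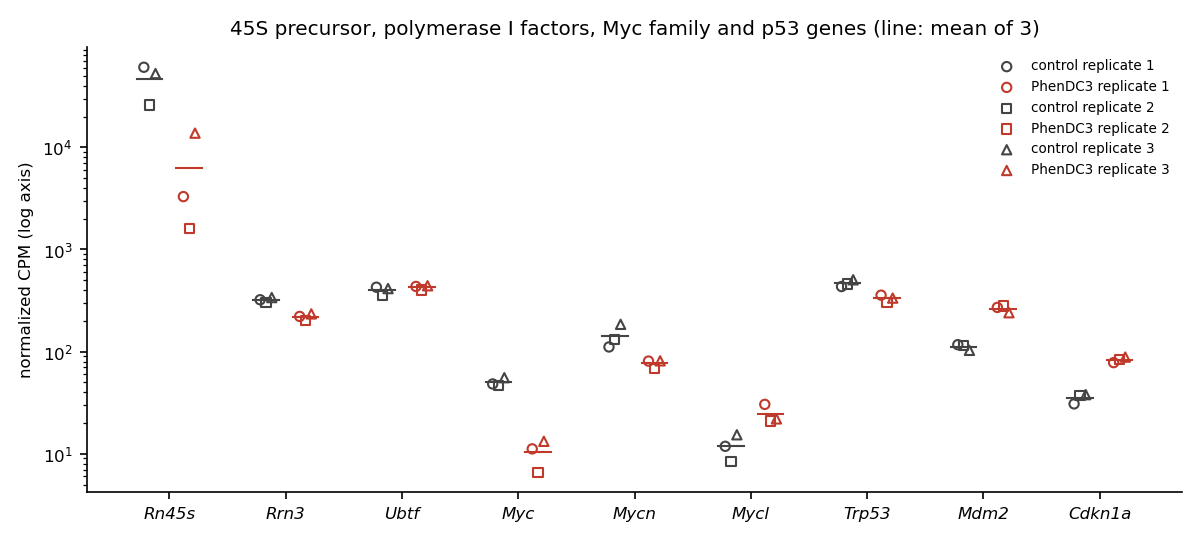
Normalized CPM on a log axis for Rn45s, Rrn3, Ubtf, 3 Myc family genes, Trp53, Mdm2 and Cdkn1a in each of the 6 libraries (gray, controls; red, PhenDC3; lines, means of 3). Rn45s, Rrn3, Myc, Mycn and Trp53 lie lower with PhenDC3 without overlap, Mycl, Mdm2 and Cdkn1a lie higher, and Ubtf overlaps.

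Genes of the Myc and Max network were called in both directions. Of 13 genes, 3 were called lower and 2 higher, shares near the 18.7% and 18.0% of all genes, with 1 higher when PhenDC3 replicate 1 or 2 was left out. Myc was at 48.2, 46.6 and 55.6 CPM in the controls and at 11.2, 6.61 and 13.3 CPM with PhenDC3, with every treated library far below the controls. Its log2 fold change was −2.27 ± 0.23 (edgeR adjusted p = 0.00019). Mycn, whose control level per kilobase was 54.98 CPM against 20.9 CPM for Myc, was at 111, 132 and 185 CPM in the controls and at 80.8, 68.0 and 81.3 CPM with PhenDC3, a log2 change of −0.90 ± 0.18 (edgeR adjusted p = 0.0056). Mxd3, a Max partner that represses Myc targets, fell by 1.25 on the log2 scale. Mycl rose by 1.05 and Mxd1, another repressor partner of Max, by 0.53, a call that was also lost without control replicate 2. Max itself was at 0.05 and was not called (edgeR adjusted p = 0.76).

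Among 7 genes of the p53 response to nucleolar stress, 3 were called higher and 2 lower, against 18.0% and 18.7% of all genes tested. Mdm2, the ubiquitin ligase of p53 and a p53 target, was at 117, 116 and 103 CPM in the controls and at 271, 279 and 240.3 CPM with PhenDC3, a log2 change of 1.24 ± 0.11 (edgeR adjusted p = 0.00014). Cdkn1a, p21, another p53 target, had the same log2 change of 1.24 ± 0.12, and Mdm4, a relative of Mdm2, one of 1.37 ± 0.23. Trp53 fell by 0.49 on the log2 scale. Rpl11, a ribosomal protein that can bind Mdm2, fell by 0.42, and its partner Rpl5 was at −0.14 without a call. The call of Rpl11 was lost without PhenDC3 replicate 1 or 3.

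Other genes of the pathway, from lists that do not contain the 38, gave calls that were mostly lower. Without the RNA polymerase III list these lists held 147 genes, of which 61 were called lower and 4 higher, with a median log2 fold change of −0.32. The number lower was 35 without PhenDC3 replicate 1. Of 13 further RNA polymerase I subunits and factors, 3 were called lower and 2 higher, with 6 lower when control replicate 3 was left out. The lower ones were Polr2f (−0.69), Polr2l (−0.55) and Polr2h (−0.49), small subunits common to the nuclear RNA polymerases, while Ttf1, the transcription termination factor (0.55), and Taf1a, a subunit of the promoter selectivity factor (0.48), were called higher. In the RNA polymerase III list 4 of 22 genes were called lower, at a share of 18.2% that lies near the background of 18.7%, led by Polr3gl (−1.07), Polr3g (−1.01) and Gtf3a (−0.89), the factor of 5S rRNA genes.

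Further factors of the small subunit processome and 40S maturation were called lower in 17 of 43 cases and higher in none, with 11 lower when PhenDC3 replicate 1 was left out, led by Imp3 (−0.77), Rrp7a (−0.67) and Noc4l (−0.65). Of 53 further 60S factors, 23 were called lower, with 10 without PhenDC3 replicate 1 and 12 without PhenDC3 replicate 2, led by Lyar (−0.95), Wdr74 (−0.83) and Eif6 (−0.75). The genes called higher were Ddx50, a close relative of Ddx21 (0.52), and Senp3, a SUMO protease of the nucleolus (0.35), whose call was lost without 5 of the 6 libraries in turn. Proteins that form or assemble snoRNPs were called lower in 7 of 13 cases, led by Ruvbl1 (−1.07), Nop10 (−0.80), a partner of Nhp2, and Naf1 (−0.72). The nuclear exosome, Xrn2 and RNase MRP proteins had 11 of 25 genes called lower, with 6 without PhenDC3 replicate 1 and 7 without PhenDC3 replicate 3, led by Exosc7 (−1.29), Exosc3 (−1.18) and Rpp40 (−0.90). Genes of cytosolic ribosomal proteins were called lower in 22 of 79 cases tested, with none higher and a median of −0.25, led by Rpl36 (−0.77), Rpl8 (−0.68) and Rplp2 (−0.63). This count varied with single libraries and settings. It was 2 without PhenDC3 replicate 1, 3 without PhenDC3 replicate 3, 13 without control replicate 1 and 8 without control replicate 2. It was 26 without PhenDC3 replicate 2 and 25 without control replicate 3. Scaling by total counts gave 2, and the replicate number as a block gave 51. Over all genes tested, 11.4% were lower without PhenDC3 replicate 1 and 26.4% with the block. No test was made between these lists, which share the same 6 libraries.

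**Figure D3:**
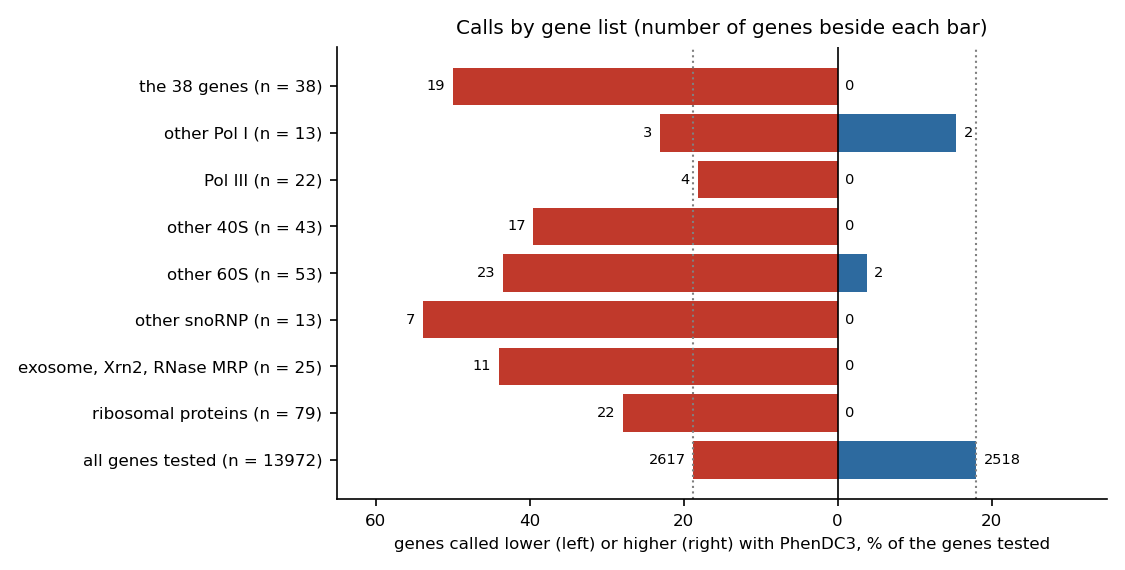
Share of the genes tested in each list that were called lower (red, to the left) or higher (blue, to the right) with PhenDC3, with gene counts beside the bars and dotted lines at the shares for all genes tested. The bar of the 38 genes reaches 50% to the left with none to the right, while the RNA polymerase III bar ends near the dotted line.

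Markers of other cell types moved with the treatment. For all genes tested the shares were 18.0% called higher and 18.7% called lower. Of 8 primitive endoderm markers 6 were called higher, and their summed level was 282 to 352 CPM in the controls and 488 to 618 CPM with PhenDC3. Of 8 trophoblast markers 7 were tested and 3 were called higher (Tfap2c, Krt8 and Krt18), with sums of 83.7 to 113 CPM and 176 to 233 CPM. The trophoblast markers did not all rise. Of the 7 tested, 2 had a negative log2 fold change, the lowest at −0.47, though none was called lower. No mesoderm marker was called, with sums of 3.33 to 5.56 CPM and 4.72 to 6.19 CPM, and Mesp1 was at 0 in 4 of the 6 libraries. Neural ectoderm markers gave 1 call in each direction, with sums of 99.0 to 106 CPM and 102 to 124 CPM, and Neurog2 was at 0 in 5 libraries. Among the ES cell markers 4 were called higher, led by Nanog (1.22), and 3 lower, led by Utf1 (−2.02). The part of these shifts in the levels of the 38 genes was not tested, and in bulk RNA fewer cells of a type and less RNA per cell cannot be told apart.

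SNS-seq peaks mark where short RNA-primed nascent strands accumulate, and promoters of active genes often carry them. A peak within 2 kb of a start site was listed for 24, 26 and 19 of the 38 genes in control replicates 1, 2 and 3, and for 22 and 15 genes in PhenDC3 replicates 1 and 2. For all genes tested with a start site the corresponding shares were 67.2%, 64.6% and 39.2% in the controls and 64.3% and 46.0% with PhenDC3, so the lists differed in how much they called. Peaks that overlapped between at least 2 controls were found for 21 of the 38 genes (55.3% against 59.2% of all genes), and peaks that overlapped between both PhenDC3 replicates for 13 (34.2% against 36.3%). With 3 lists against 2, an exact permutation test cannot go below p = 0.2, and no test between conditions was made.

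When presence alone was counted, 10 of the 38 genes carried peaks in both PhenDC3 lists as well as in 2 or 3 control lists (26.3% against 36.6% of all genes). Polr1c had the highest enrichment of the 38 genes in each list except that of PhenDC3 replicate 2, but its strongest peaks were not the same peak in both conditions. In the controls they were 19.3-fold, 11-fold and 11-fold, with middles at −1187, −988 and −1407 bases from the start site, and with PhenDC3 they were 11.2-fold and 8.71-fold, at 345 and 235 bases. Nhp2 had a weak peak in each list, at 3.99-fold, 2.65-fold and 4.36-fold in the controls and 3.68-fold and 3.32-fold with PhenDC3, with middles at −364 to −333 bases from the start site, outside the printed window. Gnl3, Nop14, Rrp12, Rrs1 and Taf1d carried peaks in 2 or 3 control lists but in neither PhenDC3 list (13.2% against 8.27% of all genes), and the first 4 of these were called lower in RNA. Of the 10 genes with peaks in both PhenDC3 lists and in 2 or 3 control lists, 4 were called lower in RNA. Among genes with peaks in only part of the lists it was 9 of 18, and among those with no peak in any list 2 of 5. Over all genes tested, 18.7% were called lower. That share was not counted within each peak class, and a link between peaks and RNA was not tested. No gene of the 38 had peaks in both PhenDC3 lists and no control list, a pattern found for 2.03% of all genes. Bysl, Ddx21, Mybbp1a, Nop58 and Pes1 had no peak in any list.

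**Figure D4:**
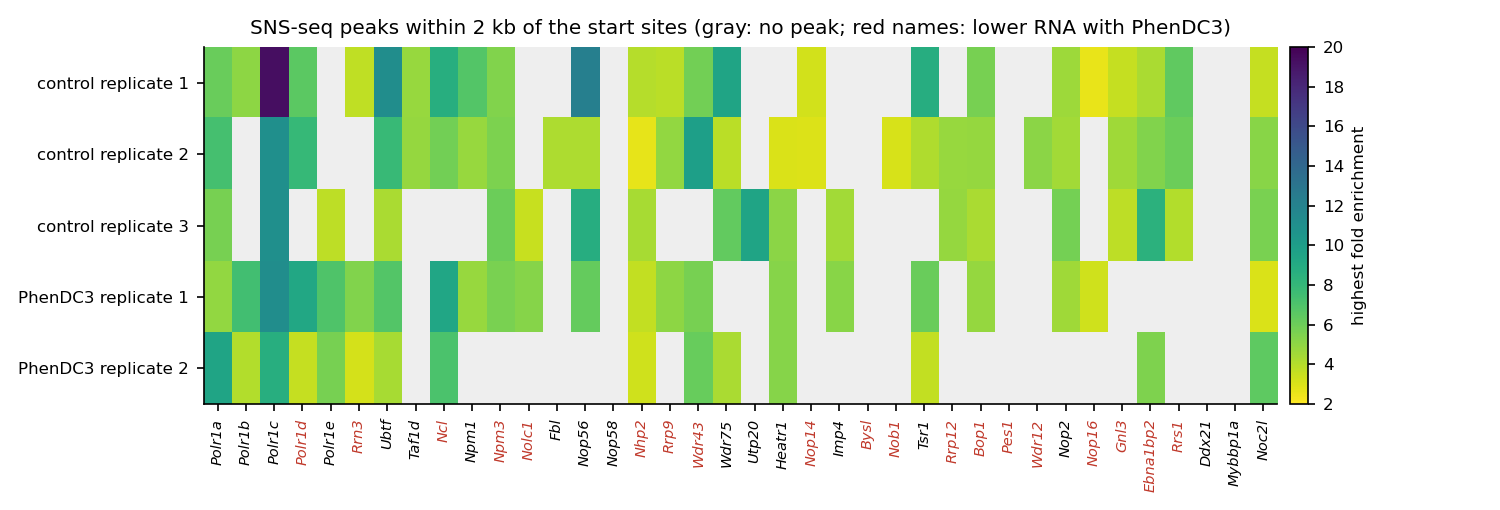
Highest fold enrichment of an SNS-seq peak within 2 kb of the start sites of the 38 genes (columns) in each of the 5 peak lists (rows), with gray where no peak was listed and red names for genes called lower in RNA. Polr1c is the darkest column in the top 4 rows, and 5 columns are gray throughout.

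Predicted G4 were less frequent at these start sites than at those of all genes, without a test. A G4Hunter score of at least 2 in size, on either strand, was found within 500 bp of the start site in 15 of the 38 genes (39.5%), against 54.9% of all genes tested. Among the 19 genes called lower, 8 had such a score, and among the other 19 there were 7. At a threshold of 1.5 the order was the other way, with 11 of the 19 genes called lower and 17 of the other 19, and by Quadparser the counts were 9 and 10. The highest score was that of Npm3 at 4, with its position at −291 bases from the start site. Bop1, with the largest fall, scored no higher than 1.44, and Rrn3 no higher than 1.48. By Quadparser, 19 of the 38 genes held a predicted G4 (50% against 59.1%).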

How the data were processed

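RNA was measured in 3 control and 3 PhenDC3 libraries, and origins in 3 control and 2 PhenDC3 SNS-seq libraries, grouped by the sample labels. The authors aligned stranded, poly(A)-selected reads with TopHat2 2.1.1 and Bowtie2 2.2.9 and deposited raw counts per gene made with HTSeq 0.6.1p1. The annotation and strand setting are not given in the sources used here. The SNS-seq peak lists were deposited per replicate, with fold enrichment and −log10 p or q as the authors' peak caller MACS2 2.1.0 gave them on mm10. The study lists an RNase-treated SNS sample as its control. Further deposited columns of pseudo-counts and of the authors' own comparison (fold changes and p-values) were not used.

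Counts were fitted with edgeR 4.0.16 in R 4.3.3 (relative log expression scaling, filterByExpr, robust quasi-likelihood fit of PhenDC3 against control, Benjamini-Hochberg adjustment over 13972 genes, threshold 0.05), after the scripts had been tested on simulated data. The study's own test was DESeq2, which was run here as an alternative (1.42.0). Precision is limited by 3 libraries per condition with 22232014 to 29486502 counts each. Positions, start sites and exon lengths came from RefSeq on GRCm38.p6, the same build as the peaks, and promoter windows from RefSeq. A peak counted when 1 bp or more lay within 2 kb of a start site. G4 were predicted by G4Hunter (25 bases, score of 2 or more in size) and Quadparser within 500 bp. The SNS-seq libraries treated with RNase were not analysed here.

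All 38 genes were named. Of other lists, up to 3 called genes per direction with the largest change were named, plus Myc and Mycn. Values for each library were given for the 8 largest falls and for Ncl, Npm1, Fbl, Polr1a, Polr1b, Rrn3 and Ubtf, and promoters for up to 6 called genes. Values of other genes by library, and Rn45s, Rmrp, Rpph1, Nanog, Utf1 and the neighbors of overlapping loci, were chosen after their values were seen. The genes, lists and tests were chosen with earlier results of these data known.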

Additional observations from a re-analysis of the deposited data

How the results depend on the processing

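The median log2 fold change of the 38 genes stayed negative in all alternatives, at −0.46 to −0.32 when single libraries were left out. Of 532 gene values over 14 alternative fits, 479 kept their direction and side of the threshold, 31 lost a call, 20 gained a call and 2 reversed. Both reversals were in Utp20, which was at −0.022 without PhenDC3 replicate 3 and ranged from −0.061 to 0.41 when single control libraries were left out. Leaving out single libraries gave 11 to 23 of the 38 genes lower, 1623 to 2727 genes lower and 1709 to 2689 higher among all genes, and 35 to 62 lower among the other ribosome biogenesis genes. Scaling by total counts gave 12 of the 38 genes lower and 1 higher, 1688 genes lower among all genes, and 34 lower and 7 higher among the other ribosome biogenesis genes, and by construction it moved all genes upward together. With the replicate number as a block (replicate block), 30 of the 38 genes were lower, beside 26.4% of all genes tested. Over all genes 3692 were lower and 3797 higher, and the call of Rn45s was lost (edgeR adjusted p = 0.068). The numbers were not taken as pairs in the main fit. Deviations of same-numbered libraries correlated at 0.09, 0.66 and 0.52, against −0.58 to 0.10 for libraries with different numbers. Replicates 2 and 3 thus moved together by number, while PhenDC3 replicate 1 correlated about equally with control replicates 1 (0.09) and 3 (0.10). Whether the numbers mark a batch was not tested. DESeq2, TMM, other filters and a fit that was not robust gave 19 or 20 genes lower. Leaving out Rn45s, chosen after seeing the data, gave 19. For SNS-seq, shares of all genes follow in parentheses. Peaks above the median −log10 p left 14 (47.4%) and 8 (31.8%) of the 38 genes in PhenDC3 replicates 1 and 2, 17 (51.1%) in control replicate 2 and 4 (20.8%) shared by both PhenDC3 lists. A window of 5 kb gave 23 (58.8%) in PhenDC3 replicate 2 and 20 (48.3%) shared by both, and equal list lengths gave 7 (26.5%) shared by both. Shared control peaks were found for 15 genes (33.6%) without control replicate 1, 13 (33.35%) without control replicate 2 and 19 (55.3%) without control replicate 3. With a single PhenDC3 list left nothing can be shared, and 15 (46.0%) or 22 (64.3%) genes had a peak in that list. The cause of these differences was not tested. A G4Hunter threshold of 1.5 gave 28 genes with a predicted G4 (73.7%, against 87.8% of all genes).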

Other observations

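The RNA components of the enzymes RNase MRP and RNase P, which cut ribosomal and transfer RNA precursors, were counted in the same libraries. Rmrp was at 33.1, 34.6 and 10.8 CPM in the controls and at 3.12, 0.878 and 9.29 CPM with PhenDC3, without overlap between the groups. Its log2 fold change was −2.55 ± 0.71 (edgeR adjusted p = 0.023), and the call was lost without PhenDC3 replicate 1 or 2 or without control replicate 1 or 2 (edgeR adjusted p of 0.051 to 0.097), and in 6 of 14 alternative fits in all. Rpph1 was at 6.70, 20.2 and 4.37 CPM in the controls and at 2.46, 0.836 and 4.61 CPM with PhenDC3, so the groups overlapped in spite of a call at −1.96 ± 0.65 (edgeR adjusted p = 0.043). That call was lost in 9 of 14 alternative fits, among them DESeq2 (adjusted p = 0.077) and the fits without PhenDC3 replicate 1, PhenDC3 replicate 2, control replicate 1 or control replicate 2. Both are transcribed by RNA polymerase III and lack a poly(A) tail, and their counts in poly(A)-selected libraries are those that passed the selection.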
